A study of Homo sapiens with 12 samples.

Results

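The genes described here are 43 interferon-stimulated genes, a set chosen by symbol as well-known targets of type I interferon signalling. All 43 symbols matched a single Ensembl identifier of the gene count table, which lists 60671 genes. The RNA was poly(A) RNA of BJ-5ta cells, a telomerase-immortalized line of human fibroblasts. Wild-type cells and cells of 1 ΔLEO1 clone were each sampled in 10% serum (WT_10 and Leo1_10) and after 10 days in 0.1% serum (WT_01 and Leo1_01). The clone had lost the first exons of LEO1, a subunit of the PAF1 complex of transcription elongation, by CRISPR/Cas9. Every group had 3 libraries, numbered 1 to 3 in WT_10, 4 to 6 in Leo1_10, 7 to 9 in WT_01 and 10 to 12 in Leo1_01, and no group is described as treated with interferon. With 1 clone only, variation from clone to clone is not measured. It is not stated whether the 3 libraries of each group came from separate cultures, so p-values measure only the spread between these libraries, which may be technical.

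Type I interferons bind a receptor made of IFNAR1 and IFNAR2, whose kinases JAK1 and TYK2 phosphorylate STAT proteins. STAT2 and IRF9 are parts of a complex, ISGF3, that then binds the interferon-stimulated response element in the promoters of target genes. The targets include sensors of viral RNA, enzymes and binding proteins that act against viral RNA or block its translation, proteins that trap or exclude virus at membranes, and the ubiquitin-like ISG15 with the enzymes that attach and remove it. Several of the targets, such as STAT2, IRF9, IRF7 and RIGI, are themselves parts of the pathway. Fibroblasts carry the receptor and are a classical cell type for studies of interferon. In uninfected cells many of the targets are read at a low level.

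The core of the response element was searched as GAAANNGAAA, in both directions, in windows of 250 bases before to 50 bases after the annotated gene starts in RefSeq (GRCh38.p14). Of the 43 genes, 34 had a window in this table, and 23 of them (67.6%) held at least 1 match. Over all 27305 genes of the table the share was 4.38%, and 3.57% of the 35116 windows held a match. Overlapping matches were counted separately, and no other motif was searched. The stretches below are shown for 4 genes that were called higher in ΔLEO1 cells and for HERC5, the one that was called lower. They are given on the gene's strand from 5′ to 3′, in RefSeq's GRCh38.p14 sequence, with the matches in capitals, reading GAAA first when the match lies on the gene's strand and TTTC first when it lies on the other strand.
ISG15, chr1:1013369-1013414, plus strand: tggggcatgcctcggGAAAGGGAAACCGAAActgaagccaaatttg
IFI6, chr1:27672261-27672363, minus strand: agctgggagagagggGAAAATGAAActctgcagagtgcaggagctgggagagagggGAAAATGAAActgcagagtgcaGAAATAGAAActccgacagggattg
IFI27, chr14:94110613-94110665, plus strand: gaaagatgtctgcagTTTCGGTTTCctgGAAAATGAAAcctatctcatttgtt
IFIT1, chr10:89392492-89392544, plus strand: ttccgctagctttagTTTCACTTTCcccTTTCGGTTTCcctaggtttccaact
HERC5, chr4:88456979-88457069, plus strand: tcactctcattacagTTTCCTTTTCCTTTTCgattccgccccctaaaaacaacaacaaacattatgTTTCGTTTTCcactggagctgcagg

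None of these stretches overlaps an exon of the GENCODE annotation. The stretches of ISG15 and IFI27 lie inside the annotated gene, in introns of transcripts that start further upstream, and the other 3 lie upstream of it. ISG15 held 2 matches that overlap, at 113 and 107 bases before the start. IFI6 held 3 matches on its own strand. HERC5 also held 3 matches, all on the other strand. RIGI and OAS1 held no match in their windows. This says only that these letters are not in that stretch.

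The gene counts of a library ranged from 26240632 to 45315560. LEO1 had 851, 935 and 915 counts in WT_10, 1001, 799 and 682 in WT_01, 53, 36 and 55 in Leo1_10 and 23, 47 and 49 in Leo1_01, so the counts of all 12 libraries followed their labels. In each group the library with the highest number stood apart. Its chi-square per gene against either of the other libraries was 66.2 to 144, and that of the other pair was 3.04 to 12.1. All 9 fibroblast markers were detected in every library, with a summed level of 52084 to 75929 CPM. Of 8 leukocyte markers, PTPRC was higher in ΔLEO1 cells, with 10, 16 and 8 counts in WT_10, 9, 11 and 21 in WT_01, 231, 269 and 61 in Leo1_10 and 247, 225 and 199 in Leo1_01. Its log2 fold change was 4.30 in 10% and 4.15 in 0.1% serum, called in both. PTPRC passed the filter described below only through ΔLEO1 libraries, so these calls are not independent of the filter. The summed level of the other 7 was 1.08 to 2.52 CPM in all libraries, and CD3E, LYZ, CD163 and CLEC4C stayed under 10 counts. The 4 endothelial markers summed to under 1 CPM in every library, and the 5 epithelial markers summed to 0.239 to 0.459 CPM in wild-type and 0.850 to 1.53 CPM in ΔLEO1 libraries. The part of PTPRC and of the epithelial markers in the results below was not tested.

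Levels are given as CPM, the count of a gene scaled to the total gene count of its library, with the 3 libraries of a group in the order of their numbers. Fold changes come from a fit across all genes with edgeR's likelihood ratio test. They were scaled to the ERCC transcripts, synthetic RNAs added to each sample, unless TMM is named. ERCC transcripts made up 0.785%, 0.925% and 1.45% of counts in WT_10 and 2.06%, 1.67% and 2.63% in WT_01. In Leo1_10 the share was 0.625%, 0.838% and 0.932%, and in Leo1_01 1.88%, 3.24% and 1.09%. The share thus differed between libraries of the same group. TMM scales each library to its own genes, so it measures a gene against the other genes of the cell. A gene was called when its Benjamini-Hochberg adjusted p was under 0.05. The test was run on 13236 genes that exceeded 1 CPM in at least 3 libraries, among them 40 of the 43. The genes not tested were RSAD2, CMPK2 and LAMP3. OASL and IFI27 passed this filter only through ΔLEO1 libraries and HERC5 only through wild-type libraries, while the other 37 passed on the libraries of either genotype alone.

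In 10% serum, 21 of the 40 genes were called higher in ΔLEO1 than in wild-type cells and none was called lower. The largest differences were those of IFI27, OASL and OAS1, and IFI6 (12.5-fold), OAS2 (11.7-fold), BST2 (10.7-fold) and ISG15 (10.1-fold) followed. IFI27 and OASL passed the filter only through ΔLEO1 libraries, so their higher value there is not independent of the filter. OAS1 had the largest difference of the genes that passed on either genotype. Over all tested genes, 4.2% were called higher and 4.64% lower. In 0.1% serum 16 were called higher, again against 3.85% of all genes, and HERC5 was called lower, against 3.59%. HERC5 passed the filter only through wild-type libraries, so its lower value in ΔLEO1 cells is not independent of the filter. All 16 were also among the 21 of 10% serum. The other 5, called in 10% serum alone, were IFI44, IFITM1, MX1, MX2 and XAF1, and none of them passed the test of the difference between the serum levels. Of the 37 genes that passed the filter on either genotype, 19 were called higher in 10% and 14 in 0.1% serum, and none was called lower. As these are cultures, more RNA per cell in all cells and a larger share of cells with the RNA cannot be told apart.

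The median log2 fold change of the 40 genes was 1.52 in 10% serum, against 0.35 for all tested genes. In 0.1% serum it was 0.96 against 0.27. In each serum level 35 of the 40 lay above the median gene. Scaling with TMM called 25 of them higher in 10% serum, where 17.7% of all genes were called higher, and 22 in 0.1% serum, where 15.4% were. The 21 and the 16 genes were all among them. TMM also called HERC5 and TRIM22 lower in both serum levels, where 21.8% and 17.6% of all genes were called lower. On the CPM scale, all ΔLEO1 libraries lay above all wild-type libraries for 21 of the 40 genes in 10% serum and for 26 in 0.1% serum. This held for 29.8% and 19.7% of all tested genes. All ΔLEO1 libraries lay below all wild-type libraries for HERC5 and TRIM22 in 10% serum, and for these and SAMD9L in 0.1% serum, that is 2 and 3 of the 40, against 29.6% and 21.8% of all genes. Leaving out the WT_01 library 7 or 9 lowered the count called higher in 0.1% serum from 16 to 7 or 8. The share of all genes called higher was then 2.38% or 2.55%. The count for 10% serum stayed between 18 and 24 without any 1 library, where 2.77% to 8.25% of all genes were called higher. When the 2 lowest-numbered libraries were summed to 1 in every group, 13 genes were called higher in 10% serum and 7 in 0.1% serum. The shares of all genes were then 2.18% and 2.67%.

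**Figure D1:**
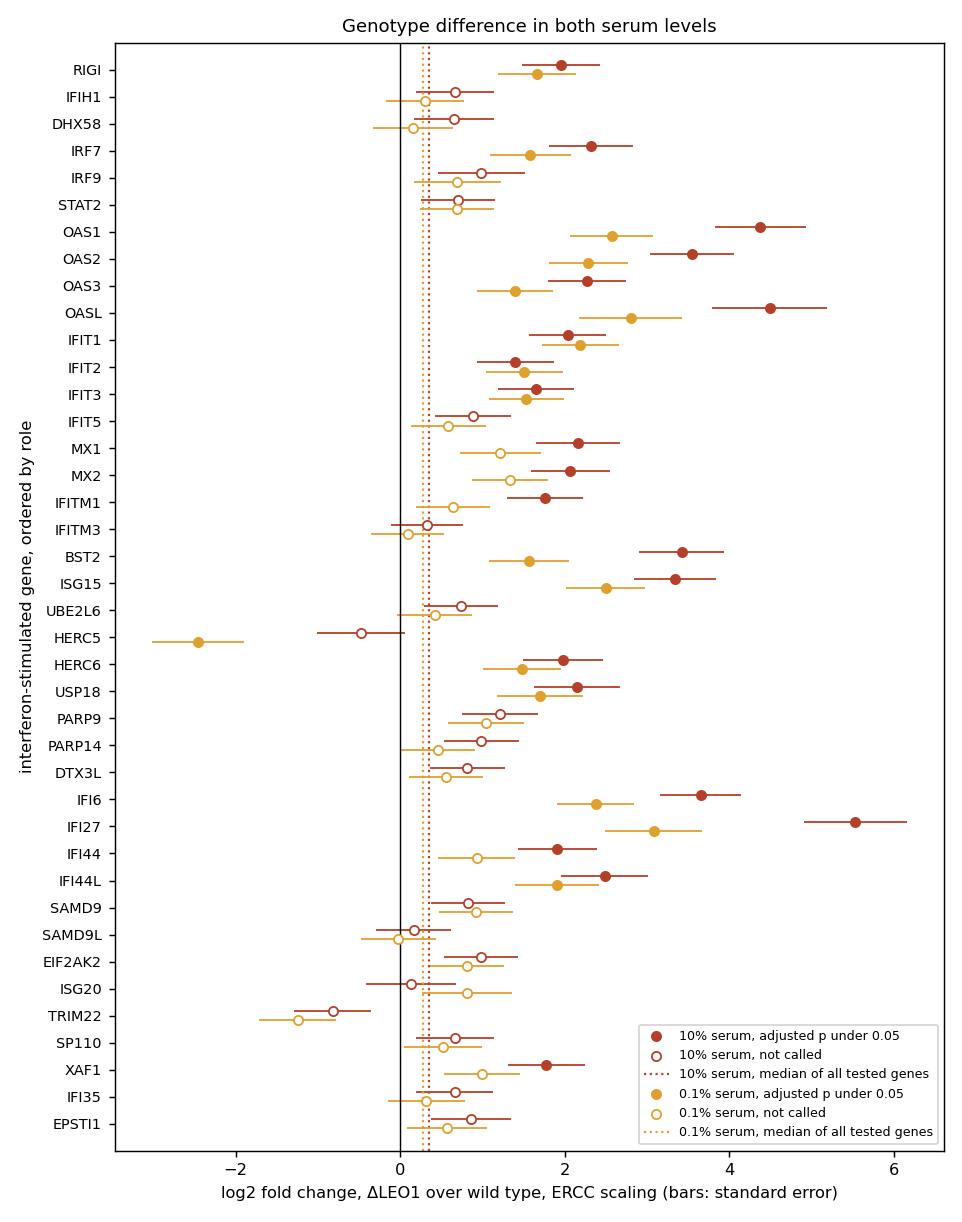
Log2 fold change of ΔLEO1 over wild-type cells for the 40 tested interferon-stimulated genes on the ERCC scale (x axis), in 10% serum (red) and 0.1% serum (orange), with 1 row per gene in order of role. Bars are standard errors, filled points have an adjusted p under 0.05 and dotted lines mark the median of all tested genes. Most genes lie to the right of the dotted lines, IFI27 reaches 5.53, and HERC5 and TRIM22 lie to the left of 0.

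**Figure D2:**
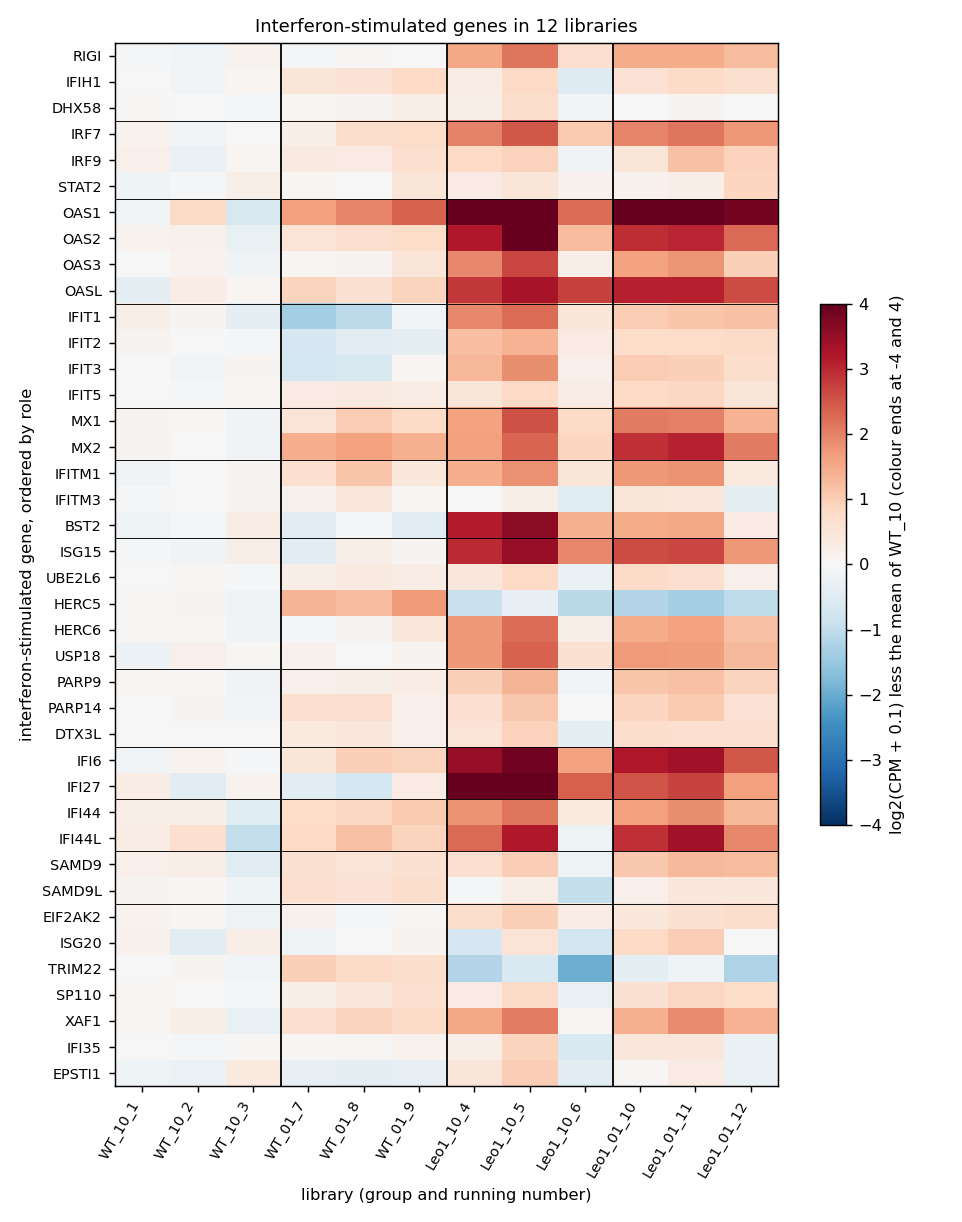
Level of the 40 tested interferon-stimulated genes (rows, in order of role) in the 12 libraries (columns), as log2(CPM + 0.1) less the mean of the WT_10 libraries, in colour from -4 to 4. The ΔLEO1 libraries are red in most rows, library 6 of Leo1_10 is paler than 4 and 5, and the HERC5 and TRIM22 rows turn blue in ΔLEO1 libraries.

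ISG15 (chr1:1001138-1014540 of GRCh38, plus strand) encodes a ubiquitin-like protein that is attached to other proteins in interferon-treated cells. It had 10.4, 10.1 and 13.0 CPM in WT_10, 8.20, 13.0 and 11.9 in WT_01, 88.9, 126 and 42.1 in Leo1_10 and 68.1, 71.4 and 37.3 in Leo1_01. The groups did not overlap by genotype, and library 6 was the lowest of Leo1_10. In group means, ISG15 stood at 11.2 ± 1.61 CPM (SD, n = 3) in WT_10 and at 85.6 ± 41.9 CPM in Leo1_10. Its log2 fold change between the genotypes was 3.34 (adjusted p = 1.16e-09, SE 0.50) in 10% serum and 2.50 (adjusted p = 8.18e-06, SE 0.48) in 0.1% serum. The enzymes of the ISG15 cycle did not move as one group. USP18, the protease that removes ISG15 and restrains receptor signalling, had 1.89, 2.58 and 2.30 CPM in WT_10, 2.55, 2.21 and 2.45 in WT_01, 7.63, 11.8 and 3.49 in Leo1_10 and 7.45, 7.32 and 5.61 in Leo1_01. It was higher in ΔLEO1 cells by 2.14 (adjusted p = 0.000885, SE 0.52) in 10% serum and 1.70 (adjusted p = 0.0169, SE 0.52) in 0.1% serum on the log2 scale. USP18 shares 21.2% of its 58-base stretches with USP41, so its count is uncertain. HERC6, a ligase related to HERC5, had 10.4, 10.4 and 9.10 CPM in WT_10, 9.36, 10.8 and 13.3 in WT_01, 33.2, 46.8 and 12 in Leo1_10 and 28.2, 30.5 and 22.4 in Leo1_01. Its difference was 1.98 (adjusted p = 0.000872, SE 0.48) in 10% serum and 1.48 (adjusted p = 0.028, SE 0.48) in 0.1% serum, and no ΔLEO1 library fell within the wild-type range of its serum level. UBE2L6, the conjugating enzyme of the cycle, had 49.6, 51.9 and 48.5 CPM in WT_10, 60.5, 64.3 and 61.6 in WT_01, 68.0, 86.3 and 41.2 in Leo1_10 and 84.2, 79.1 and 57.7 in Leo1_01. Its genotype difference was not called (0.74 and 0.42 on the log2 scale), and library 6 lay below the WT_10 libraries.

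HERC5 (chr4:88457117-88506163, plus strand) is the main ligase that attaches ISG15 in human cells. It had 1.81, 1.89 and 1.58 CPM in WT_10, 4.63, 4.31 and 5.94 in WT_01, 0.902, 1.37 and 0.788 in Leo1_10 and 0.719, 0.646 and 0.822 in Leo1_01. The ΔLEO1 libraries lay below the wild-type libraries in both serum levels, with the wider gap in 0.1% serum. The gene passed the filter only through wild-type libraries. Its fitted difference was -0.47 (adjusted p = 0.656, SE 0.53) in 10% serum and -2.45 (adjusted p = 0.000316, SE 0.56) in 0.1% serum as log2 fold change. TMM gave -0.79 (adjusted p = 0.00647) and -2.75 (adjusted p = 2.85e-24). HERC6, which lies next to HERC5 on the same strand (chr4:88378739-88443111), was thus higher in CPM in the ΔLEO1 libraries in which HERC5 was lower.

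The oligoadenylate synthetases are switched on by double-stranded RNA and make the messenger that activates a nuclease that cuts RNA. OAS1, OAS3 and OAS2 lie side by side on chromosome 12, and OASL lies further along the same chromosome and has lost the enzyme activity. OAS1 (chr12:112906777-112933222, plus strand) had 1.04, 1.99 and 0.689 CPM in WT_10, 3.71, 4.73 and 6.18 in WT_01, 20.6, 35.5 and 5.76 in Leo1_10 and 29.9, 31.0 and 17.4 in Leo1_01. WT_10 was the lowest group and Leo1_10 the most spread, with library 6 just below the highest WT_01 library. OAS2 had 5.73, 5.84 and 4.21 CPM in WT_10, 7.58, 8.27 and 8.72 in WT_01, 49.3, 84.9 and 12.8 in Leo1_10 and 40.7, 44.0 and 25.2 in Leo1_01. OAS3 had 31.6, 34.1 and 28.3 CPM in WT_10, 32.8, 33.8 and 43.4 in WT_01, 118, 199.7 and 38.0 in Leo1_10 and 95.3, 108 and 59.9 in Leo1_01. All 4 genes were called higher in ΔLEO1 cells in both serum levels. For OAS1 the log2 fold change was 4.38 (adjusted p = 3.4e-13, SE 0.56) in 10% serum and 2.57 (adjusted p = 1.66e-05, SE 0.51) in 0.1% serum, for OAS2 3.55 and 2.29, and for OAS3 2.27 and 1.40. The call of OAS3 in 0.1% serum (adjusted p = 0.0337) was lost with the quasi-likelihood test (adjusted p = 0.0559). OASL was nearly unread in wild-type cells, with 1, 4 and 3 counts in WT_10 and 7, 4 and 7 in WT_01, and had 42, 70 and 45 in Leo1_10 and 46, 43 and 32 in Leo1_01. In CPM this was 0.0274, 0.102 and 0.0765 CPM in WT_10, 0.208, 0.152 and 0.209 in WT_01, 1.08, 1.54 and 1.01 in Leo1_10 and 1.32, 1.32 and 0.907 in Leo1_01. Its fitted difference, 4.49 (adjusted p = 6.8e-09, SE 0.70) in 10% serum and 2.80 (adjusted p = 0.000239, SE 0.63) in 0.1% serum, rests on these few wild-type counts. OASL passed the filter only through ΔLEO1 libraries.

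IFI6 and IFI27 encode small membrane proteins of the same family. IFI6 (chr1:27666061-27672218, minus strand) had 40.9, 49.1 and 43.2 CPM in WT_10, 62.0, 86.0 and 81.6 in WT_01, 492, 643 and 135 in Leo1_10 and 411, 455 and 248 in Leo1_01. In Leo1_10 it had the highest level of the 43 per kilobase of exon, at a mean of 489 CPM per kilobase, where WT_10 had 51.3. Its log2 fold change was 3.65 (adjusted p = 1e-11, SE 0.49) in 10% serum and 2.38 (adjusted p = 1.33e-05, SE 0.47) in 0.1% serum. IFI27 (chr14:94104836-94116698, plus strand) had 0.411, 0.204 and 0.357 CPM in WT_10, 0.208, 0.152 and 0.418 in WT_01, 12.4, 19.4 and 2.09 in Leo1_10 and 2.27, 2.58 and 1.19 in Leo1_01. In counts, WT_10 had 15, 8 and 14 and Leo1_10 had 481, 880 and 93, so that library 6 held the fewest of its group. IFI27 showed the largest difference of the 40 in each serum level, with 5.53 (adjusted p = 2.14e-16, SE 0.63) in 10% serum and 3.08 (adjusted p = 9.16e-06, SE 0.59) in 0.1% serum. It passed the filter only through ΔLEO1 libraries, so its first place is not independent of the filter.

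The IFIT proteins bind foreign RNA through its ends, and their genes form a cluster on chromosome 10. IFIT1 (chr10:89392546-89406486, plus strand) had 48.6, 44.5 and 32.2 CPM in WT_10, 16.1, 19.9 and 37.8 in WT_01, 156, 194 and 57.8 in Leo1_10 and 82.6, 88.0 and 92.3 in Leo1_01. Libraries 7 and 8 of WT_01 lay below all others, while library 9 lay within the WT_10 range. IFIT2 had 27.5, 25.2 and 23.9 CPM in WT_10, 16.1, 18.6 and 19.7 in WT_01, 58.6, 67.2 and 32.3 in Leo1_10 and 42.3, 42.7 and 43.3 in Leo1_01. IFIT3 had 51.0, 47.2 and 54.5 CPM in WT_10, 31.3, 33.3 and 53.7 in WT_01, 127, 183 and 57.9 in Leo1_10 and 104, 98.2 and 82.3 in Leo1_01. In both serum levels the ΔLEO1 libraries of these 3 genes lay above the wild-type libraries, with library 6 the closest to WT_10. The log2 fold changes were 2.03 (adjusted p = 0.000311, SE 0.47) in 10% serum and 2.19 (adjusted p = 0.000102, SE 0.47) in 0.1% serum for IFIT1, and 1.65 and 1.53 for IFIT3. IFIT2 reached 1.40 (adjusted p = 0.0321, SE 0.46) in 10% serum and 1.51 (adjusted p = 0.0193, SE 0.47) in 0.1% serum. Its call in 10% serum was lost with the quasi-likelihood test (adjusted p = 0.0525). Unlike the other 3 genes, IFIT5 was not called (0.88 and 0.59), though TMM gave 0.52 (adjusted p = 0.0024) and 0.41 (adjusted p = 0.0241).

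MX1 and MX2 encode dynamin-like GTPases that block viruses in the cytoplasm and at the nuclear pore. They are neighbours on chromosome 21. MX1 had 4.03, 3.83 and 3.37 CPM in WT_10, 5.38, 7.62 and 6.36 in WT_01, 11.7, 22.1 and 6.48 in Leo1_10 and 16.1, 15.4 and 9.86 in Leo1_01. MX2 had 10.9, 10.2 and 9.08 CPM in WT_10, 27.7, 30.9 and 26.8 in WT_01, 31.4, 51.2 and 18.3 in Leo1_10 and 76.1, 86.2 and 43.1 in Leo1_01. For MX2, WT_01 lay above WT_10 in all libraries, and Leo1_01 libraries 10 and 11 were the highest of all. In 10% serum the genotype difference was 2.16 (adjusted p = 0.000509, SE 0.51) for MX1 and 2.07 (adjusted p = 0.000348, SE 0.48) for MX2. In 0.1% serum it was 1.22 (adjusted p = 0.145, SE 0.50) and 1.33 (adjusted p = 0.0555, SE 0.47), neither of which was called on the ERCC scale, while TMM called both (1.12 and 1.29).

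Among the membrane proteins, BST2 (tetherin), which holds budding virus at the cell surface, had 4.11, 4.49 and 5.94 CPM in WT_10, 3.54, 4.61 and 3.46 in WT_01, 43.1, 58.6 and 12.9 in Leo1_10 and 13.6, 14.3 and 5.98 in Leo1_01. Its genotype difference was 3.42 (adjusted p = 1.96e-09, SE 0.52) in 10% serum and 1.56 (adjusted p = 0.02, SE 0.49) in 0.1% serum. The mean of Leo1_01 lay between those of wild-type cells and Leo1_10, although the Leo1_01 and Leo1_10 libraries overlapped. IFITM1, which blocks the fusion of virus with the cell membrane, had 50.1, 55.5 and 59.3 CPM in WT_10, 88.3, 119 and 73.2 in WT_01, 152, 197 and 76.8 in Leo1_10 and 182, 190.4 and 72.7 in Leo1_01. It was higher in 10% serum by 1.76 (adjusted p = 0.00258, SE 0.46). In 0.1% serum library 12 fell below all WT_01 libraries, and the difference was 0.64 (adjusted p = 0.646, SE 0.45). IFITM3, which acts in endosomes, had 591, 609.8 and 666 CPM in WT_10, 701, 843 and 639 in WT_01, 635, 728 and 448 in Leo1_10 and 865, 846 and 480.0 in Leo1_01. Its genotype differences of 0.33 and 0.09 were not called (adjusted p = 0.708 and 0.948). IFITM1 and IFITM3 share 30.9% and 31.0% of their 58-base stretches with transcripts of other genes, chiefly of the same family, so their counts are uncertain.

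Of the RNA sensors, RIGI (chr9:32455705-32526324, minus strand) had 15.2, 14.5 and 17.1 CPM in WT_10, 14.9, 16.1 and 15.3 in WT_01, 45.9, 68.8 and 25.0 in Leo1_10 and 43.9, 44.0 and 37.9 in Leo1_01. All ΔLEO1 libraries lay above all wild-type libraries, by 1.95 (adjusted p = 0.000828, SE 0.47) in 10% serum and 1.66 (adjusted p = 0.00769, SE 0.47) in 0.1% serum. IFIH1 (MDA5) and DHX58 (LGP2), the other sensors of the family, were not called between the genotypes. DHX58 had 10.3, 10.1 and 9.59 CPM in WT_10, 10.5, 10.8 and 11.8 in WT_01, 11.9, 16.3 and 9.21 in Leo1_10 and 10.0, 10.7 and 10.1 in Leo1_01, with the genotypes overlapping in both serum levels. IFIH1 ranged from 8.82 to 22.2 CPM over all libraries, with differences of 0.67 and 0.30.

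The transcription factors differed among themselves. IRF7, which amplifies the production of interferon, had 4.96, 4.11 and 4.39 CPM in WT_10, 5.35, 7.32 and 7.43 in WT_01, 17.9, 25.5 and 9.36 in Leo1_10 and 17.7, 20.2 and 15 in Leo1_01. It was higher by 2.32 (adjusted p = 0.00012, SE 0.51) in 10% serum and 1.58 (adjusted p = 0.0211, SE 0.49) in 0.1% serum. STAT2 and IRF9, parts of ISGF3, had smaller values. STAT2 had 79.0, 85.0 and 104 CPM in WT_10, 94.3, 88.6 and 123 in WT_01, 111, 125 and 99.4 in Leo1_10 and 100.1, 106 and 161 in Leo1_01. The highest value was that of library 12, in which most of the other genes were lower than in 10 and 11. IRF9 had 1.59, 1.12 and 1.45 CPM in WT_10, 1.78, 1.75 and 2.27 in WT_01, 2.45, 2.67 and 1.24 in Leo1_10 and 1.98, 3.20 and 2.72 in Leo1_01. The difference was 0.71 and 0.69 for STAT2 (adjusted p = 0.446 and 0.591), and 0.99 and 0.69 for IRF9 (adjusted p = 0.331 and 0.691). IRF9 shares 42.4% of its 58-base stretches with AL136295.5, an annotated gene whose span covers it, so its count is uncertain.

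IFI44 and its neighbour IFI44L, whose functions are less well known, lie on chromosome 1. IFI44 had 11.5, 11.3 and 6.78 CPM in WT_10, 16.1, 17.2 and 20.1 in WT_01, 33.4, 43.1 and 12.7 in Leo1_10 and 30.3, 34.9 and 24.2 in Leo1_01. IFI44L had 2.28, 2.99 and 0.893 CPM in WT_10, 3.27, 4.27 and 3.52 in WT_01, 9.28, 17.6 and 1.58 in Leo1_10 and 14.5, 19.8 and 7.28 in Leo1_01. Library 6 of IFI44L lay within the WT_10 range, so that the groups overlapped in 10% serum although the gene was called. The log2 fold change was 2.49 (adjusted p = 6.49e-05, SE 0.53) in 10% serum and 1.90 (adjusted p = 0.0042, SE 0.51) in 0.1% serum for IFI44L and 1.91 (adjusted p = 0.00147, SE 0.48) in 10% serum and 0.93 (adjusted p = 0.343, SE 0.47) in 0.1% serum for IFI44. XAF1, which promotes cell death, showed the same overlap with 18.2, 20.3 and 14.2 CPM in WT_10, 27.1, 32.1 and 29.8 in WT_01, 51.3, 72.6 and 18.5 in Leo1_10 and 46.7, 65.1 and 45.9 in Leo1_01. Its difference was 1.78 (adjusted p = 0.00287, SE 0.47) in 10% serum and 0.99 (adjusted p = 0.262, SE 0.46) in 0.1% serum, and 34% of its 58-base stretches are shared with PRAL, which overlaps it on the opposite strand, so its count is uncertain.

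The ADP-ribosylating enzymes PARP9 and PARP14 and the ubiquitin ligase DTX3L, the partner of PARP9, were not called between the genotypes on the ERCC scale. PARP14 had 69.5, 74.3 and 63.9 CPM in WT_10, 109, 109 and 79.7 in WT_01, 109.9, 145 and 70.2 in Leo1_10 and 125, 142 and 103 in Leo1_01, and library 6 lay within the WT_10 range. Their differences were 1.21, 0.99 and 0.82 in 10% serum and 1.04, 0.46 and 0.55 in 0.1% serum. TMM called PARP9 in both and PARP14 in 10% serum. PARP9 and DTX3L start back to back on opposite strands, and their gene spans overlap.

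EIF2AK2 (PKR), the kinase that stops translation on double-stranded RNA, had 111, 104 and 86.5 CPM in WT_10, 114, 96.5 and 103 in WT_01, 162, 195 and 122 in Leo1_10 and 135, 151 and 163 in Leo1_01. It lay above wild type in all libraries of both serum levels, with log2 fold changes of 0.98 and 0.82, called with TMM and not with ERCC scaling. IFI35 had 18.4, 18.0 and 18.9 CPM in WT_10, 19.0, 19.0 and 20.3 in WT_01, 22.2, 33.9 and 12 in Leo1_10 and 25.1, 25.1 and 15.4 in Leo1_01. EPSTI1 had 8.86, 8.45 and 13.1 CPM in WT_10, 7.84, 7.70 and 7.88 in WT_01, 13.9, 19.8 and 7.41 in Leo1_10 and 10.2, 12.6 and 8.33 in Leo1_01. Neither was called between the genotypes, and both had library 6 below every WT_10 library. Of the others, ISG20 (an exonuclease) had at most 2.03 CPM, and SP110 (a nuclear body protein) had 11.8 to 26.2 CPM, without a call.

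TRIM22, a ubiquitin ligase with activity against several viruses, ran opposite to most of the set. It ranged from 30.8 to 35.5 CPM in WT_10 and from 8.44 to 21.5 in Leo1_10, and from 53.8 to 63.8 in WT_01 and 14.1 to 29.6 in Leo1_01. On the ERCC scale its differences of -0.82 and -1.25 did not pass (adjusted p = 0.366 and 0.0898). TMM gave -1.18 (adjusted p = 0.00104) and -1.29 (adjusted p = 0.000356). SAMD9 and SAMD9L are adjacent antiviral genes on chromosome 7 and were not called on the ERCC scale, with 0.83 and 0.92 for SAMD9 and 0.16 and -0.02 for SAMD9L.

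The 3 genes without a test were close to the detection limit. CMPK2, a mitochondrial nucleotide kinase, had 6, 4 and 2 counts in WT_10 and 4, 5 and 12 in WT_01, and no count in any of the 6 ΔLEO1 libraries. A count of 0 allows up to 3 counts, or 0.0662 to 0.0922 CPM in these libraries, by counting error only. Its neighbour RSAD2 (viperin), whose gene overlaps it on the opposite strand, had 0, 0 and 0 counts in WT_10, 0, 4 and 6 in WT_01, 4, 5 and 1 in Leo1_10 and 6, 6 and 6 in Leo1_01. LAMP3, a lysosomal membrane protein, had 3, 3 and 0 in WT_10, 2, 7 and 2 in Leo1_10 and none in 0.1% serum.

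**Figure D3:**
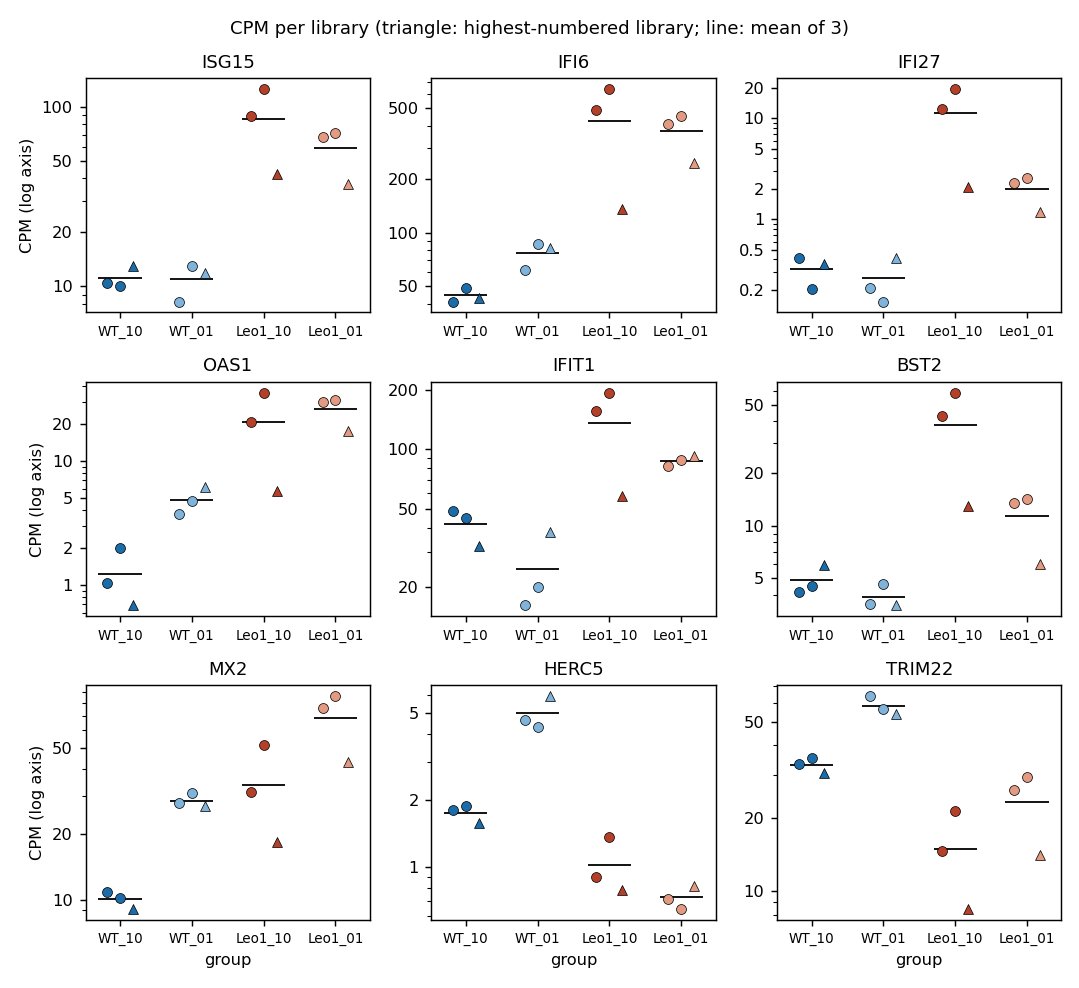
CPM (y axis, logarithmic) of 9 interferon-stimulated genes in each of the 12 libraries, by group (x axis). Triangles mark the library with the highest number in its group and lines the mean of 3. In Leo1_10 the triangle, library 6, is the lowest point for all 9 genes, and HERC5 and TRIM22 run opposite to the other 7.

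The ΔLEO1 libraries were not alike. In Leo1_10 all 40 tested genes were lower in library 6 than in both 4 and 5, which held for 47.2% of all tested genes. The median log2 ratio of library 6 to the mean of the other 2 was -1.18 for the 40 genes and -0.03 for all tested genes. It ran from -3.02 to -0.25. The summed level of the 43 genes was 3115, 4065 and 1633 CPM in the 3 Leo1_10 libraries, against 1622, 1656 and 1625 CPM in WT_10. IFITM3 made up 591 to 666 CPM of the WT_10 sums. In Leo1_01 the same direction was seen in library 12, where 29 of the 40 lay below 10 and 11, against 33.3% of all genes, with a median of -0.39. In the wild type, 22 of the 40 were lowest in library 3 of WT_10 and 8 in library 9 of WT_01, against 46.6% and 41.4% of all genes. PTPRC moved with the genes in library 6, at 61 counts against 231 and 269. Without library 6, 22 genes were called higher in 10% serum, all 21 and PARP9, against 3.84% of all genes. Without the 4 highest-numbered libraries, 25 were called higher in 10% serum and 16 in 0.1% serum, against 7.3% and 2.86% of all genes. Of the 16 in 0.1% serum, 15 were among the 16 called with all libraries.

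The response to low serum depended on the scaling. Relative to the ERCC transcripts, the median log2 fold change of 0.1% over 10% serum was, over all tested genes, -0.97 in wild-type and -1.05 in ΔLEO1 cells. Of the 40 genes, 5 were called lower in wild-type cells: IFIT1 (-1.95, adjusted p = 0.000588, SE 0.47), IFIT2 (-1.57), IFIT3 (-1.47), BST2 (-1.30) and EPSTI1 (-1.37). Over all genes 36.1% were called lower and 0.944% higher, and none of the 40 was called higher. The median of the 40 was -0.70, and 29 of them lay above the median gene. The count of 5 rested on single libraries. It was 1 without WT_10 library 1 or without WT_01 library 7, 2 without WT_01 library 9 and 3 without WT_10 library 2, and the share of all genes called lower was then 9.1%, 8.67%, 9.79% and 13.5%. It was 14, 16 and 18 without WT_10 library 3, Leo1_01 library 11 and Leo1_01 library 12, where 57.1%, 59% and 65% of all genes were called lower.

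Low serum went with 26 lower calls among the 40 in ΔLEO1 cells, where 47.2% of all genes were called lower and 0.975% higher. The 5 genes of the wild type were among them, and none was called higher. Of the 37 genes that passed the filter on either genotype, 23 were called lower. IFI27 fell by 3.87 (adjusted p = 1.78e-09, SE 0.56) on the log2 scale, the most of the 40, followed by BST2 (-3.15, adjusted p = 9.4e-08, SE 0.51), ISG15 (-1.86), IFIT1 (-1.80), OAS3 (-1.75) and OAS2 (-1.73). The median of the 40 was -1.22. The count was 6 without Leo1_10 library 4 or Leo1_01 library 10, 8 without Leo1_10 library 5 and 9 without Leo1_01 library 11, and the share of all genes called lower moved to 6.33%, 4.82%, 23.4% and 8.22%. Without Leo1_01 library 12 the count was 36, against 88.3% of all genes. Of the 14 genes not called with all libraries in, MX2 (-0.29), ISG20 (-0.42) and SAMD9 (-0.49) had the values nearest to 0.

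Measured against the other genes by TMM, few of the genes were called. In wild-type cells OAS1 (1.89, adjusted p = 0.00397), MX2 (1.42), HERC5 (1.41) and SAMD9L (0.57) were called higher and IFIT2 (-0.58, adjusted p = 0.028) lower, against 16% and 16.6% of all genes. In ΔLEO1 cells MX2 (0.98, adjusted p = 0.0134) was called higher and IFI27 (-2.53, adjusted p = 0.000981) and BST2 (-1.80, adjusted p = 0.00101) lower, against 16.5% and 12.9%. MX2 in ΔLEO1 cells (-0.29 with ERCC scaling) and SAMD9L in wild-type cells (-0.44) thus changed sign with the scaling. So did IFITM1, IFITM3, UBE2L6, PARP14 and XAF1 in ΔLEO1 cells, which ERCC scaling called lower and TMM placed at 0.02 to 0.23, without a call. The median of the 40 was 0.25 in wild-type and -0.03 in ΔLEO1 cells. On the CPM scale all WT_01 libraries lay above all WT_10 libraries for 25 of the 40 genes and below for IFIT2 and EPSTI1, against 31.5% and 18.6% of all genes. All Leo1_01 libraries lay above all Leo1_10 libraries for SAMD9 alone of the 40 and below for none, against 27.3% and 15.8% of all genes.

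**Figure D4:**
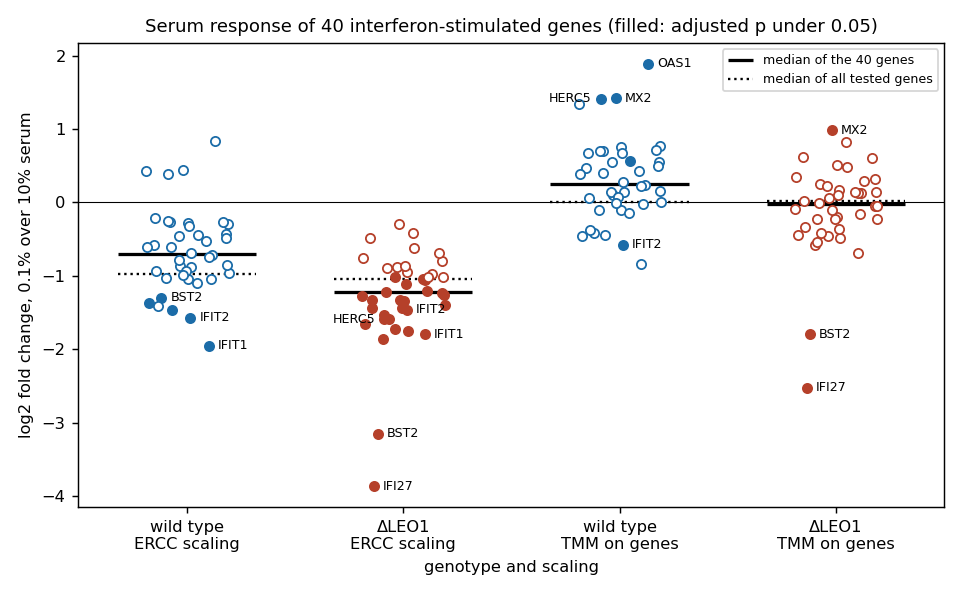
Log2 fold change of 0.1% over 10% serum (y axis) of the 40 tested interferon-stimulated genes, in wild-type (blue) and ΔLEO1 cells (red), with ERCC scaling (left pair) and TMM on the genes (right pair). Filled points have an adjusted p under 0.05, solid lines are the median of the 40 genes and dotted lines that of all tested genes. The filled points of the left pair number 5 and 26, those of the right pair 5 and 3.

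The difference of the serum responses between the genotypes, which is also the difference of the genotype effects between the serum levels, was called for none of the 40 genes on the ERCC scale. At an unadjusted p under 0.05 there were 5 with the likelihood ratio test, 4 with the quasi-likelihood test and 3 with DESeq2, against 330, 280 and 264 of all 13236 tested genes. After adjustment 0.136% were called higher and 0.0831% lower over all genes. The value was negative for 36 of the 40 genes, led by IFI27 (-2.45, adjusted p = 0.457, SE 0.82), HERC5 (-1.98), BST2 (-1.86) and OAS1 (-1.81). The median was -0.43, against -0.07 for all genes. With TMM, HERC5 alone was called, at -1.96 (adjusted p = 1.53e-05), where 3.06% of all genes were called higher and 1.02% lower. HERC5 passed the filter only through wild-type libraries. In means ± SD of 3 libraries HERC5 had 1.76 ± 0.160 CPM in WT_10 and 4.96 ± 0.865 CPM in WT_01, and 1.02 ± 0.307 CPM in Leo1_10 and 0.729 ± 0.0884 CPM in Leo1_01.

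The order of levels was compared per kilobase of exon, in CPM. IFITM3 (462), IFI6 (51.3) and IFITM1 (50.9) had the highest means in WT_10, where IFI6 and IFITM1 did not differ beyond their SD of 4.90 and 4.26. In Leo1_10 the order was IFI6 (489), IFITM3 (448), IFITM1 (131) and ISG15 (90.9), where IFI6 and IFITM3 did not differ beyond their SD of 301 and 106. BST2 moved from rank 19 of 43 in WT_10 to rank 6 in Leo1_10, and TRIM22 from 16 to 34.

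By position, the 43 genes lie on 16 chromosomes. In 9 stretches, with gaps of at most 100 kb between genes, lie 21 of them, and 22 stand alone. Neighbours did not always move together. The OAS1, OAS3 and OAS2 stretch was higher as a whole. In contrast, HERC6 and HERC5 had opposite signs in both serum levels. IFIT5 was not called on the ERCC scale beside IFIT1, IFIT2 and IFIT3, but it differed in the same direction. Its ΔLEO1 libraries lay above its wild-type libraries in CPM in both serum levels. IFITM3 was not called beside IFITM1, which was itself called in 10% serum alone.

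The genes upstream in the pathway were read from lists of 21 ligands, 6 receptors, 21 sensors and adaptors, 5 further IRFs and 10 negative regulators. The interferons themselves were close to absent in all groups. Of the 21 ligand genes, 18 had no count in any library, where 0 allows up to 0.0662 to 0.114 CPM by counting error. IFNB1 had 1 count in library 6 and 1 in library 12 and none in the others. IFNE, the third ligand with counts beside IFNA5, had 10, 6 and 20 in WT_10, 21, 20 and 11 in WT_01, 6, 5 and 6 in Leo1_10 and 1, 8 and 6 in Leo1_01, which was not tested.

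Both chains of the receptor were read. IFNAR1 had 99.0, 99.6 and 109 CPM in WT_10, 148, 147 and 112 in WT_01, 82.3, 77.9 and 73.4 in Leo1_10 and 119, 119 and 118 in Leo1_01. IFNAR2 had 13.0, 13.8 and 32.7 CPM in WT_10, 15, 16.5 and 13.6 in WT_01, 9.51, 9.78 and 8.22 in Leo1_10 and 15, 16.4 and 13.1 in Leo1_01. On the ERCC scale no receptor gene was called between the genotypes. The values were -0.03 and 0.04 for IFNAR1 and -0.61 and 0.16 for IFNAR2. TMM called both, and IL10RB, lower in Leo1_10 (-0.41 for IFNAR1 and -1.12 for IFNAR2). In 0.1% serum IFNAR2 was called lower in wild-type cells (-1.28, adjusted p = 0.0316, SE 0.48), where WT_10 library 3 lay apart from 1 and 2. Without 1 library the adjusted p of this call reached 0.175. No receptor gene was called in ΔLEO1 cells.

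The receptor kinases JAK1 (0.22 in 10% and 0.13 in 0.1% serum) and TYK2 (0.51 and 0.57) were not called between the genotypes. In low serum TYK2 was called lower in wild-type cells (-1.18, adjusted p = 0.036, SE 0.46). In ΔLEO1 cells JAK1 (-1.07, adjusted p = 0.0415, SE 0.45) and TYK2 (-1.12, adjusted p = 0.0381, SE 0.46) were both called lower.

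None of the 15 tested sensors and adaptors, 2 tested IRFs and 7 tested negative regulators was called between the genotypes in either serum level on the ERCC scale. TMM called 2 of the 15 sensors and adaptors higher and 5 lower in 10% serum, and 1 higher and 3 lower in 0.1% serum. Over all genes TMM called 17.7% higher and 21.8% lower in 10% serum, and 15.4% and 17.6% in 0.1% serum. With ERCC scaling IRF3 had 0.81 and 0.31, and IRF1 0.65 and 0.10. IRF2, the other tested IRF, had 995, 1059 and 1633 counts in WT_10 and 577, 770 and 730 in Leo1_10. In low serum it had 995, 723 and 1098 in WT_01 and 475, 431 and 640 in Leo1_01. Its counts, not scaled for depth, thus did not overlap by genotype in either serum level. On the CPM scale, all ΔLEO1 libraries lay below all wild-type libraries for 29.6% of all tested genes in 10% serum. In 0.1% serum this held for 21.8%. In low serum 5 of the 15 sensors and adaptors were called lower in wild-type cells, from TLR4 (-1.66) to MAVS (-1.25), and 6 in ΔLEO1 cells, from TLR4 (-1.84) to STING1 (-1.05), against 36.1% and 47.2% of all genes. IRF2 was called lower in ΔLEO1 cells (-1.14). Of the negative regulators, 2 were called lower in wild-type cells, PTPN11 (-1.24) and CYLD (-1.20), and 6 in ΔLEO1 cells, from SOCS3 (-1.51) to PTPN11 (-1.06), that is 2 and 6 of the 7 tested beside the same 36.1% and 47.2% of all genes.

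A list of 49 other interferon-stimulated genes, 41 of them tested, was read beside these. In 10% serum 7 were called higher in ΔLEO1 cells and none lower, from CCL5, a chemokine (4.74, adjusted p = 6.37e-12, SE 0.63), down to GBP1, a guanylate-binding GTPase (1.31, adjusted p = 0.0462, SE 0.46). CCL5 passed the filter only through ΔLEO1 libraries, so its higher value there is not independent of the filter. In 0.1% serum CCL5 (2.75, adjusted p = 0.000178, SE 0.61) and GBP1 (1.43, adjusted p = 0.0259, SE 0.46) were called higher, and RTP4 (-2.20, adjusted p = 0.0031, SE 0.58) lower. RTP4 passed the filter only through WT_01 libraries, so its lower value in Leo1_01 is not independent of the filter. Over all genes 4.2% were called higher and 4.64% lower in 10% serum, and 3.85% and 3.59% in 0.1% serum. The median of the 41 was 0.62 and 0.39. With TMM, 14 were called higher and 4 lower in 10% serum, and 10 higher and 8 lower in 0.1% serum, where the shares of all genes were 17.7%, 21.8%, 15.4% and 17.6%. In low serum 7 of the 41 were called lower in wild-type cells, from TDRD7 (-1.47) to NAMPT (-1.18), and 20 in ΔLEO1 cells, from GBP4 (-2.92) to LY6E (-1.02). Over all genes the lower calls came to 36.1% and 47.2%. CXCL9, CXCL10 and CXCL11, chemokines that interferon induces strongly, had at most 3 counts in any library.

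**Figure D5:**
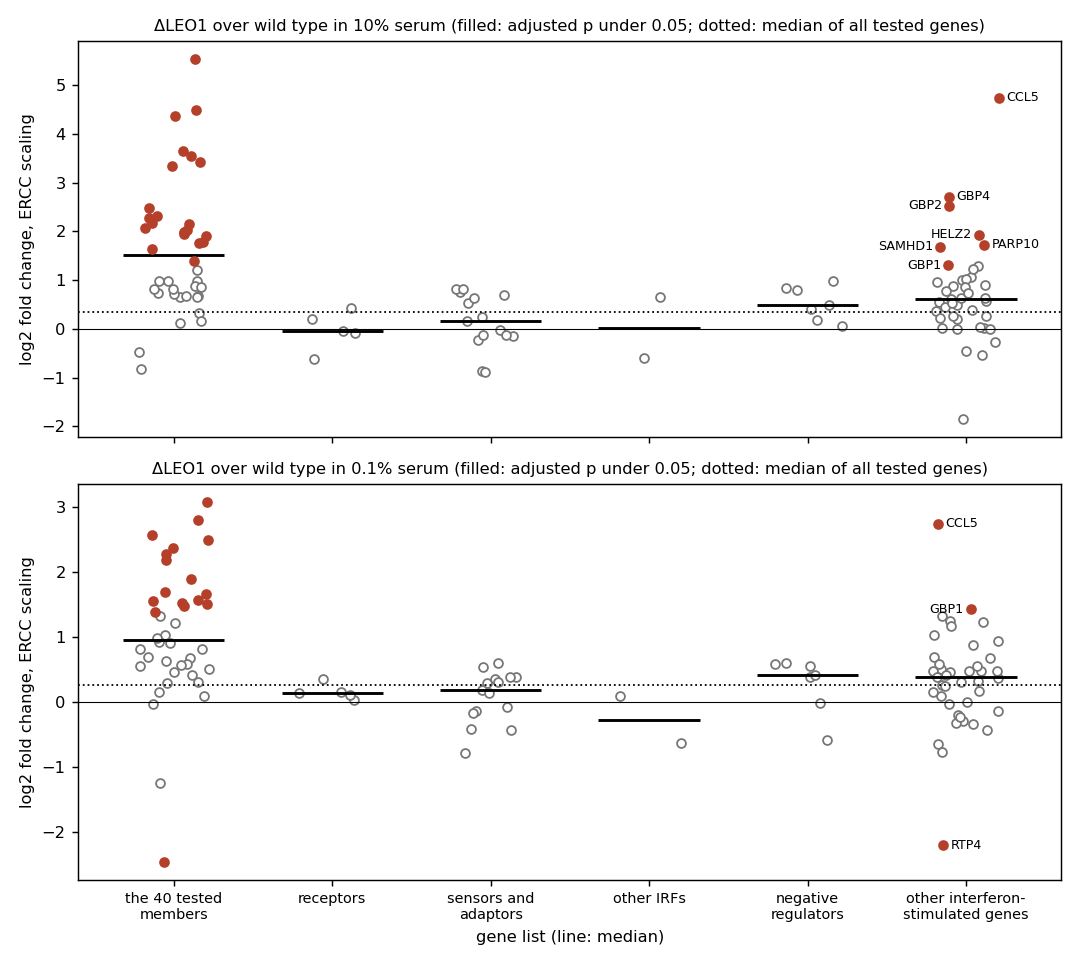
Log2 fold change of ΔLEO1 over wild-type cells on the ERCC scale (y axis) for the 40 tested interferon-stimulated genes and for 5 lists of the pathway (x axis), in 10% serum (upper panel) and 0.1% serum (lower panel). Filled points have an adjusted p under 0.05, solid lines are medians of the lists and the dotted line is the median of all tested genes. No point of the receptors, sensors and adaptors, other IRFs and negative regulators is filled, and CCL5 is the highest of the other interferon-stimulated genes. CCL5 passed the filter only through ΔLEO1 libraries.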

How the data were processed

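Poly(A) RNA of 12 samples of BJ-5ta fibroblasts, with ERCC transcripts added, was sequenced as stranded paired-end libraries. The deposited values are counts of reads per gene, one table for genes and one for the 92 ERCC transcripts. Per the submitters' processing notes the authors used bcl2fastq 2.20.0.422, STAR 2.7.10a and featureCounts 1.5.1 with GRCh38. The strand setting and the annotation release are not given in the sources used here. Groups were taken from the labels. Coordinates are those of GENCODE v29, and promoter windows are those of RefSeq on GRCh38.p14.

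Genes with more than 1 CPM in at least 3 libraries were kept, which left 13236 of 60671. Counts of all 12 libraries were fitted together in edgeR 4.0.16 (R 4.3.3) with 4 group means, and contrasts were tested by two-sided likelihood ratio tests. The effective library size was the summed ERCC count of a library, adjusted by TMM among the ERCC transcripts. P-values were adjusted by the Benjamini-Hochberg method over all tested genes, and genes under 0.05 were called. The quasi-likelihood test, DESeq2 1.42.0, TMM and DESeq2 size factors on the genes, other filters, a threshold of 0.01, covariates, summed libraries and the omission of each library were the alternatives. TMM with the quasi-likelihood test and the omission of the 4 highest-numbered libraries were added after seeing the data. In simulated counts for WT_01 against WT_10 on 13236 genes, 200 of 200 genes changed by a log2 fold of 3 were recovered, with 10 false calls among 13036 by the likelihood ratio test.

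The 43 genes and the lists were chosen with earlier results of these data known. Values in every library are given for each tested gene that was called in any comparison and for IRF9 and STAT2, and the others are given by ranges and counts. Of the pathway lists, IFNB1, IFNAR1, IFNAR2, JAK1, TYK2, IRF1 and IRF3 were named, together with the called members of the largest and smallest log2 fold change. TRIM22, IL10RB, PTPRC, IFNE and the CXCL genes outside this rule were singled out after their values were seen. Some genes of the lists are not reported here. To find genes that share reads, every 58-base stretch of a gene's transcripts was looked up in the transcripts of all other genes. Count intervals and floors cover counting error only.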

Additional observations from a re-analysis of the deposited data

Results flagged for a closer look

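The difference of the serum response between the genotypes, tested as an interaction with TMM scaling, was called for 1 of the 43 genes and for 4 genes of the other lists. It was -1.96 (SE 0.37, adjusted p = 1.53e-05) for HERC5, which rose with low serum in wild-type cells in that scaling (1.41) and had -0.54 in ΔLEO1 cells. HERC5 passed the filter only through wild-type libraries, so this call is not independent of the filter. GBP4, a guanylate-binding GTPase, had -2.11 (SE 0.38, adjusted p = 6.24e-06), and its relative GBP2 had -0.995 (SE 0.27, adjusted p = 0.00928). SAMHD1, which degrades deoxynucleotides, had -0.9998 (SE 0.29, adjusted p = 0.0166), and SOCS3, an inhibitor of cytokine signalling, had -0.752 (SE 0.23, adjusted p = 0.0297). With ERCC scaling none of the 5 was called, and the values were -1.98 for HERC5, -2.44 for GBP4, -1.20 for GBP2, -1.20 for SAMHD1 and -0.76 for SOCS3.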

How the results depend on the processing

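With TMM on the genes, DESeq2 size factors on the genes, and TMM with the quasi-likelihood test, in this order, 4, 4 and 3 genes were called higher in WT_01 than in WT_10 (0 with ERCC scaling) and 1, 1 and 1 lower (5). Of all genes, 16%, 16.2% and 15.5% were then called higher and 16.6%, 16.4% and 16.1% lower. In Leo1_01 against Leo1_10, 1, 2 and 1 were called higher (0) and 2, 2 and 2 lower (26). The shares of all genes were 16.5%, 16.5% and 15.5% higher and 12.9%, 12.9% and 12.1% lower. Called lower in ΔLEO1 cells were 2, 2 and 2 in 10% serum (0) and 2, 2 and 2 in 0.1% serum (1), and the interaction had 1, 1 and 1 lower (0). Lower calls over all genes came to 21.8%, 21.3% and 21.4% in 10% serum and 17.6%, 17.4% and 17.3% in 0.1% serum. For the interaction they came to 1.02%, 1.02% and 0.453%. The sign turned under these 3 scalings, in the same order, for the ΔLEO1 serum response of MX2 (0.982, 0.981 and 0.981), IFITM1 (0.0244, 0.0244 and 0.0242), IFITM3 (0.229, 0.228 and 0.229), UBE2L6 (0.129, 0.128 and 0.129), PARP14 (0.135, 0.134 and 0.134) and XAF1 (0.0936, 0.0938 and 0.0933), and for the wild-type serum response of SAMD9L (0.569, 0.573 and 0.569). MX2 ranged from -0.66 to 0.00934 without 1 library, turning without Leo1_10 library 5, and HERC5 in the wild type with the highest-numbered library per serum as covariate (-0.0354). By construction, these scalings set the median gene near 0.

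Fitting the 6 libraries compared alone called 18 genes lower in WT_01 with low serum (64.8% of all genes, against 36.1% with all 12). It called 10 lower in Leo1_01 with low serum (12.4% against 47.2%) and 9 higher in Leo1_01 than in WT_01 (2.95% against 3.85%). With the 2 lowest-numbered libraries summed, 0 and 2 were lower with low serum in wild-type and ΔLEO1 cells (4.58% and 1.53% of all genes). By genotype, 13 and 7 were higher in 10% and 0.1% serum (2.18% and 2.67%). In the same setting 0 were lower in Leo1_01 than in WT_01 (1.84%). A covariate for the highest-numbered library gave 15 lower in Leo1_01 with low serum (32.2% of all genes). A covariate per serum level gave 23 lower in WT_01 (71.4%). A threshold of 0.01 left 2 and 9 lower with low serum in wild-type and ΔLEO1 cells and 9 higher in Leo1_01 than in WT_01. The share of all genes at this threshold is not given here. No filter gave 1 and 2 lower by genotype in 10% and 0.1% serum, against 2.49% and 2.11% of the 32285 genes then tested. Without the 4 highest-numbered libraries, 20 were lower in WT_01 with low serum (71.8% of all genes) and 2 lower in Leo1_01 than in WT_01 (16.6%). The interaction then had 3 lower, BST2, HERC5 and OAS1 (0.831% of all genes). The cause was not tested.

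Without 1 library at a time, the genes lower with low serum ranged from 1 to 18 in wild-type cells (8.67% to 65% of all genes). In ΔLEO1 cells they ranged from 6 to 36 (4.82% to 88.3%). The genes higher by genotype ranged from 18 to 24 in 10% serum (2.77% to 8.25% of all genes). In 0.1% serum they ranged from 7 to 22 (2.38% to 10.1%). HERC5 was the gene called lower in 0.1% serum, and leaving out Leo1_01 library 12 brought that count from 1 to 2 (7.85%). The interaction had 0 to 1 lower, the 1 without Leo1_01 library 12. Of the 69 calls of single genes with ERCC scaling, 62 held with the quasi-likelihood test, 66 with DESeq2 and 41 with TMM on the genes. No paired analysis was possible because the running numbers of the libraries are not shared between groups. Genes under 1 CPM, RSAD2, CMPK2 and LAMP3 among them, are limited by depth, and a single clone and 3 libraries per group limit all genotype differences.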
